A study of Sus scrofa with 16 samples.

Results

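The BCKDHB locus of pig chromosome 1 was examined for methylation peaks in heart tissue. The locus ran from chr1:96339001-96811500 of the genome build Sscrofa10.2, a stretch of 472.5 kb. It reached from 100 kb below the lowest to 100 kb above the highest of 3 windows of 500 bp that the authors annotated to introns of BCKDHB. The locus was selected on measured values, since the authors' reads at the lowest window in TH vs. YH, and at the other 2 windows in TL vs. YL, put the gene among their differentially methylated regions (DMRs). The locus held 213 of the 1159046 peaks of the series. Peaks that shared at least 1 bp were joined into regions, which gave 39 of the 242875 regions of the whole series. The regions were numbered from the lowest position. The limits of the gene in Sscrofa10.2 were not used here, so part of the flanks may lie outside it. In the pig RefSeq table of another build, BCKDHB (gene 100142669, transcript NM_001123219.1) lay between LOC110260709 and TTK.

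The 16 animals were male pigs, castrated boars slaughtered at 6 months of age, in 4 groups of 4. Tibetan pigs raised at highland formed TH, Yorkshire pigs raised at highland YH, Tibetan pigs raised at lowland TL and Yorkshire pigs raised at lowland YL. All animals were conceived, born and raised where they were sampled, and YH and TL came from populations that had been moved there earlier, so that place and rearing were shared within a group. DNA of whole heart tissue, a mixture of cell types, was sonicated and enriched for methylated fragments by methylated DNA immunoprecipitation before sequencing (MeDIP-seq).

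BCKDHB encodes the beta subunit of the E1 component of the branched-chain keto acid dehydrogenase complex. This mitochondrial complex carries out the committed step in the breakdown of leucine, isoleucine and valine, after a transaminase has turned them into keto acids. The heart takes up and oxidizes branched-chain amino acids, and loss of function of the human gene causes maple syrup urine disease. A MeDIP peak marks a stretch of DNA with methylated cytosines and does not give the level of methylation of a single cytosine.

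The pair of primers with which the study amplified BCKDHB after bisulfite treatment is shown because it is the designed sequence by which methylation of this gene was assayed base by base in other animals of the groups. Bisulfite turns unmethylated cytosine into uracil, which is read as T. Each primer has 25 bases and 0 CG dinucleotides, so that it binds whether or not the template was methylated. The forward primer holds 0 C and has the sequence of the converted strand, and the reverse primer, which pairs with that strand, holds 0 G. The sequences are given 5′ to 3′, and their position in the genome was not determined here.
BCKDHB forward primer: aaaattagattttgatataatatgg
BCKDHB reverse primer: atacctatacactcaacatttactc

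Each group was deposited as 1 list of peaks, with the position, summit, tags (reads counted in the peak) and fold enrichment of each peak over the background given by the peak caller. No peak carried the name of an animal. No base lay under more than 4 peaks of the same list, which equals the size of a group. The largest number of a list's peaks over a base of a region was therefore read as the animals that had a peak there. In the 39 regions of the locus, 0 held more peaks of a group than animals counted in this way. The lists gave no total of reads, and the depth of the libraries was not analysed here. An animal without a peak may have methylation under the detection limit of its library. The YL list was the longest and the TL list the shortest, at 332078 and 259066 peaks, against 280678 in TH and 287224 in YH. Counts of animals were therefore also made with lists of equal length.

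Of the peaks of the locus, 50 came from TH, 47 from YH, 52 from TL and 64 from YL. The density of peaks per Mb was 106 for TH, 99.5 for YH, 110 for TL and 135 for YL. On chromosome 1 the densities were 84.3, 87.1, 80.7 and 101 peaks per Mb in the same order, so that the locus was denser than its chromosome in each group. Over chromosomes 1 to 18 and X they were 103, 105, 94.3 and 121, and the locus was denser than this average for TH, TL and YL but not with only peaks of at least 20 tags. Of the 213 peaks, YL contributed 30.0%, close to its share of 28.7% of all peaks, and TL contributed 24.4% against 22.4% of all peaks. The bases under a peak made up 5.72% of the locus for TH, 4.95% for YH, 5.42% for TL and 6.33% for YL.

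The peaks of the locus were shorter and had fewer tags than those of the whole lists, and their fold enrichment was higher. The median number of tags per peak was 20 for TH, 22 for YH, 19.5 for TL and 22.5 for YL, against 27, 29, 25 and 30 in the whole lists. The median fold enrichment was 9.54 for TH, 8.29 for YH, 8.39 for TL and 8.55 for YL, against 8.28, 7.29, 7.88 and 7.49 over all peaks. The TH list had the highest median in both cases. Against chromosome 1 the peaks of the locus differed less. The chromosome's median number of tags was 22 for TH, 24 for YH, 21 for TL and 24 for YL, and its median fold enrichment was 9.06, 8.06, 8.6 and 8.19, so that the TL value of the locus lay below it. Over the locus, a peak had 11 to 58 tags, a fold enrichment between 4.2 and 16.69 and a length between 397 and 2186 bp. The lists have no replicate values for these summaries, so no test between groups was made.

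Fewer regions of the locus rested on 1 animal than in the series, and more were shared by 9 to 11 animals, while the most widely shared classes were not more frequent. The median region of the locus had a peak in 5 of 16 animals, against 3 on chromosome 1 and 3 over all regions. Only 5 of the 39 regions (12.8%, 95% Wilson interval 5.6–26.7%) rested on a single animal, against 30.1% of all regions. Between 9 and 11 animals shared 9 regions (23.1%, 12.6–38.3%), against 8.77% of all regions. A further 3 regions were found in 12 to 15 animals (7.69%, 2.65–20.3%), against 8.58% of all regions. A peak in all 16 animals was found in 0 regions (upper bound 8.97%), against 1.82% of all regions. Peaks of all 4 groups occurred in 16 regions (41%), against 28.6% of all regions, and 10 regions (25.6%) had peaks of 1 group, against 34.8%. The intervals cover counting error only, and neighbouring regions share libraries and base composition, so these shares are a description.

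**Figure D1:**
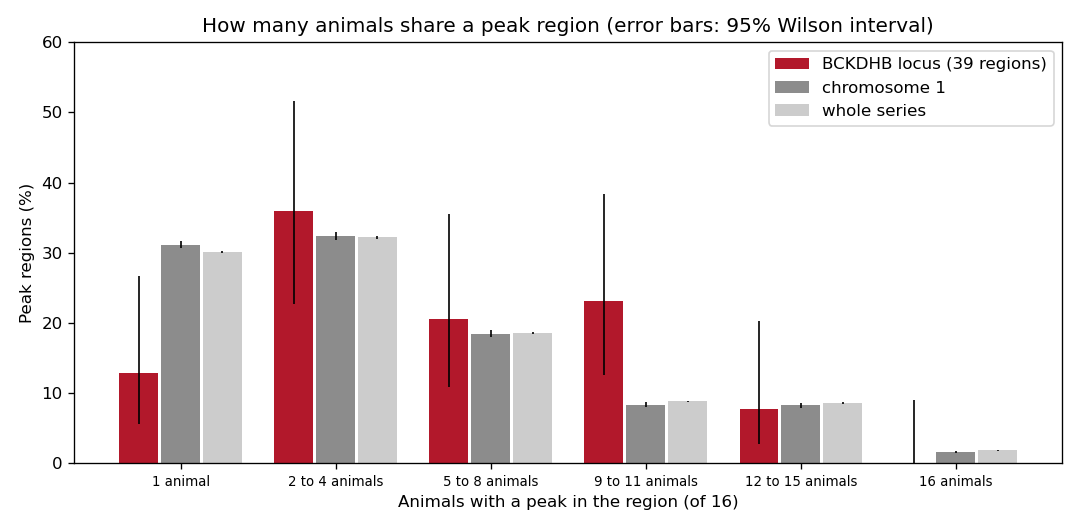
The percentage of peak regions (y axis) is plotted against the number of the 16 animals with a peak in the region (x axis), for the 39 regions of the BCKDHB locus, for chromosome 1 and for the whole series, with 95% Wilson intervals as error bars. The locus has a lower share of regions with 1 animal (12.8%) and a higher share with 9 to 11 animals (23.1%) than the whole series (30.1% and 8.77%).

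Along the locus the peaks lay in 2 stretches with a gap between them. No list had a peak in chr1:96518680-96650880, a stretch of 132.2 kb between regions 20 and 21. Of the 231414 stretches between neighbouring regions of chromosomes 1 to 18 and X, 1293 (0.559%) were at least as long, 227 of them among the 24074 of chromosome 1. Stretches of at least this length made up 12.7% of the peak-free bases of chromosomes 1 to 18 and X. The next longest stretches of the locus measured 37.1 kb, below region 9, and 35.7 kb, above region 11. The median stretch was 5.1 kb at the locus and 4.8 kb over chromosomes 1 to 18 and X. Base composition and mappability of the gap were not analysed here. TH had a peak in 27 regions, YH in 22, TL in 26 and YL in 30. Regions in which all 4 animals of a group had a peak numbered 1 for TH, 3 for YH, 1 for TL and 6 for YL. The share of such regions over the series was not determined, and the YL list was the longest. At the upper edge, region 39 lay just inside the limit, with 1 YH and 1 YL animal, and the next region, chr1:96813834-96815027 (TH 0, YH 2, TL 1 and YL 3 animals), lay 2334 bp outside it. The next region below the locus, chr1:96325370-96326885, was 12116 bp away and had a peak in 1 TH, 2 YH, 3 TL and 1 YL animals.

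**Figure D2:**
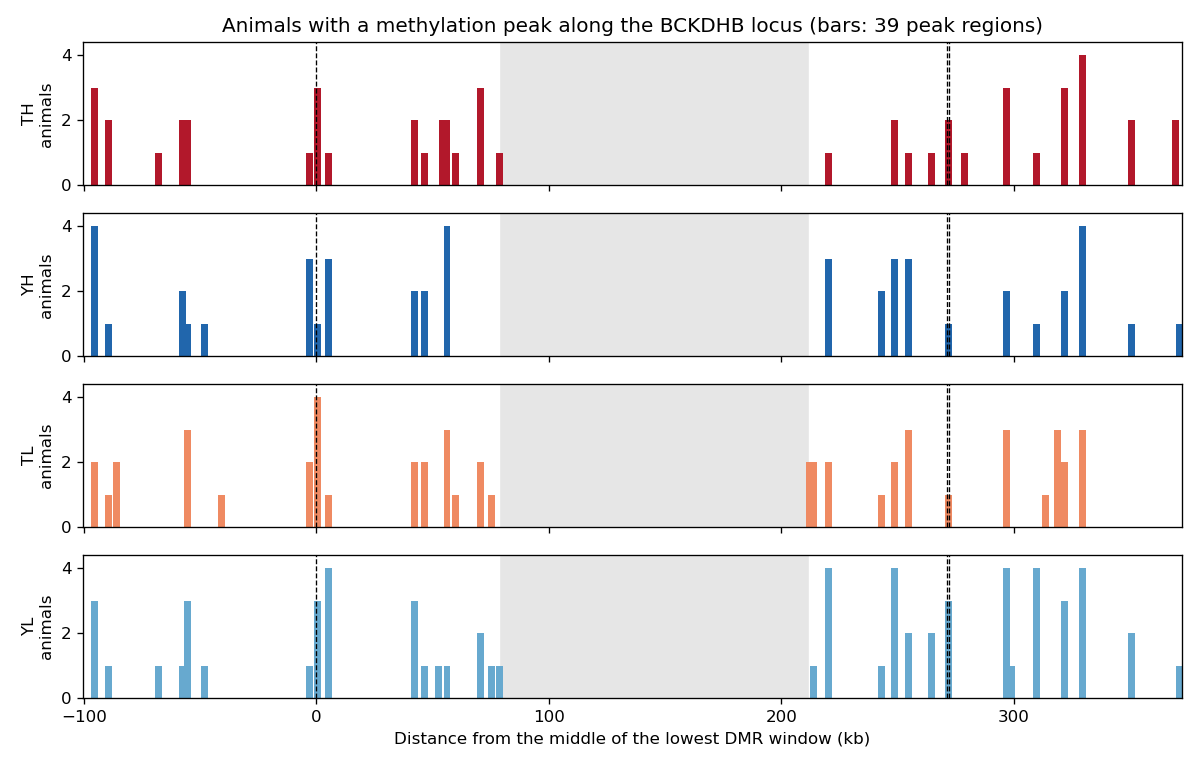
The number of animals with a peak (y axis, 0 to 4) is drawn for each of the 39 regions against the distance from the middle of the lowest DMR window in kb (x axis), with 1 panel per group, bars drawn wider than the regions, dashed lines at the 3 windows and the peak-free stretch in grey. The grey stretch of 132.2 kb is empty in each panel, and a full bar of 4 animals appears once for TH and TL, 3 times for YH and 6 times for YL.

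The lowest window, chr1:96439001-96439500, lay in region 10 (chr1:96438886-96440440), which had a peak in 3 TH, 1 YH, 4 TL and 3 YL animals. TH vs. YH at this window chose the locus, so the breeds are described here without a test. The 3 TH peaks had fold enrichments of 10.83, 9.22 and 10.21 with 43, 20 and 39 tags. The single YH peak had a fold enrichment of 5.7 with 22 tags. The 4 TL peaks had fold enrichments of 7.76, 6.97, 5.68 and 8.16, and the 3 YL peaks 7.08, 7.3 and 6.66. The TH peaks thus lay above each of the other 8 peaks of the region, while those of TL and YL overlapped. The peaks of TL carried 41, 21, 24 and 21 tags and those of YL 20, 27 and 34, which overlapped with the tags of TH.

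The summits in region 10 fell into 2 places. In 8 peaks (3 TH, 1 YH, 3 TL and 1 YL) the summit lay between 96439367 and 96439431, inside the window. In the other 3 peaks, 1 of TL and 2 of YL, it lay between 96439701 and 96439818, above the window and 270 bp away from the nearest summit of the lower place. The window just above, chr1:96439501-96440000, was overlapped by peaks of the same numbers of animals (3, 1, 4 and 3 in TH, YH, TL and YL), and the window after that by 2, 1, 3 and 3. The window below was reached by 1 TH peak.

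The regions on either side of region 10 had another distribution over the groups. Region 9 (chr1:96435854-96436836), whose summits lay about 3.0 kb below the middle of the window, had a peak in 1 TH, 3 YH, 2 TL and 1 YL animals. Region 11 (chr1:96443795-96445249), 5.2 kb above it, had a peak in 1 TH, 3 YH, 1 TL and 4 YL animals. The YH group, with 1 animal in region 10, thus had 3 in each neighbour. In region 11 the YL peaks had fold enrichments of 7.39, 9.53, 7.13 and 9.31 and the YH peaks 9.24, 5.63 and 10.19. The single TH peak had a fold enrichment of 6.95 and the single TL peak 5.52, so the TL value lay below each Yorkshire value and the TH value within their range.

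The other 2 windows, chr1:96710001-96710500 and chr1:96711001-96711500, both lay in region 28 (chr1:96709523-96711767), with a peak in 2 TH, 1 YH, 1 TL and 3 YL animals. These windows were selected on TL vs. YL, and the breeds are again given without a test. The lower window was overlapped by peaks of 1 TH, 1 YH, 1 TL and 3 YL animals, and the upper by 2, 1, 1 and 3. The YL peaks had 58, 55 and 41 tags and fold enrichments of 5.35, 7.2 and 10.48. The TL peak had 30 tags and a fold enrichment of 10.48, the YH peak 51 tags and 9.16, and the TH peaks 31 and 18 tags and 11.86 and 10.64. The YL peaks thus had more tags than the TL peak, while none of them had a higher fold enrichment. Of the 7 summits, 6 lay between 96710976 and 96711116, at or next to the upper window. The remaining summit, of a YL peak, was at 96710109 in the lower window, which held no other summit.

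**Figure D3:**
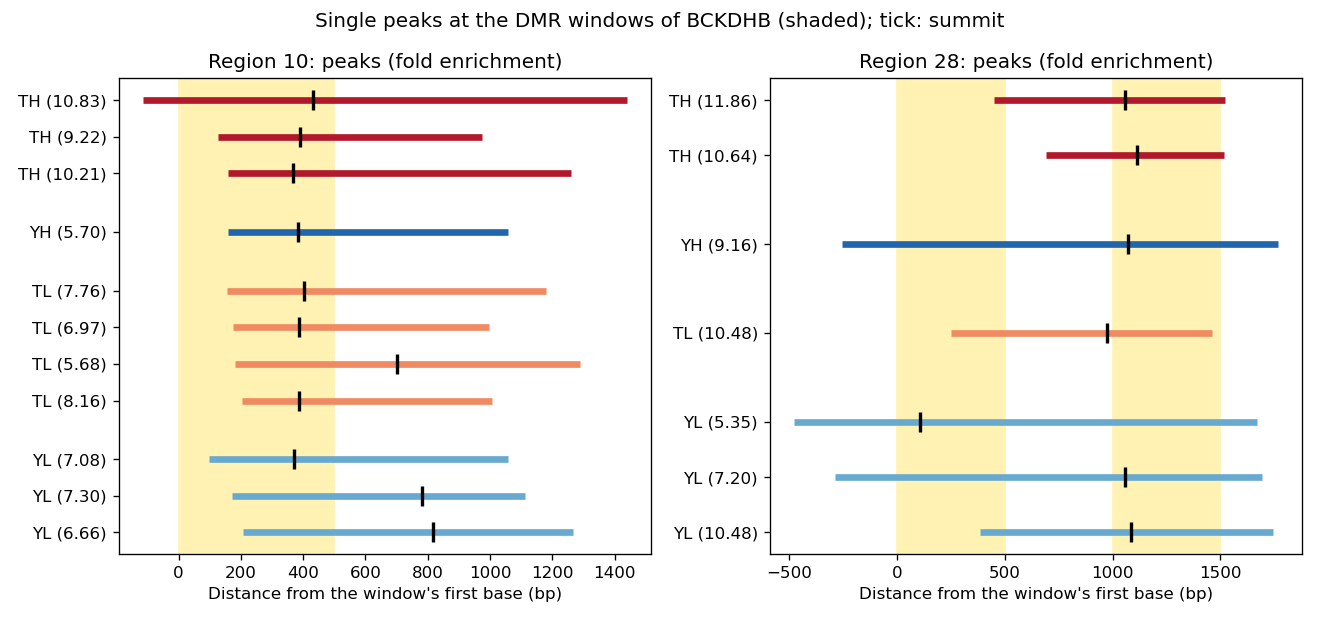
Single peaks are drawn as bars from start to end against the distance from the first base of the window in bp (x axis), grouped and coloured by group, with the fold enrichment in brackets, a black tick at the summit and the DMR windows shaded, for region 10 (left) and region 28 (right, with both windows). In region 10 the TH peaks carry the highest fold enrichments (9.22 to 10.83), and in region 28 a single summit, of a YL peak, falls into the lower window.

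Between the breeds, few regions differed by at least 3 of 4 animals. In TH vs. YH this held for 1 of the 19 regions of the locus with a peak in at least 3 of the 8 animals, against 9.95% of 84897 such regions of the series. The 19 include regions 10 and 28, whose windows selected the locus, so this share is not independent of the selection. The region that differed was region 18 (chr1:96509453-96510464), with a peak in 3 TH, 0 YH, 2 TL and 2 YL animals. The TH peaks had fold enrichments of 9.62, 12.91 and 9.77, the TL peaks 8.89 and 13.36 and the YL peaks 10.07 and 7.04. The 3 against 0 animals did not pass a two-sided Fisher's exact test (p = 0.143, adjusted p = 1 by Benjamini-Hochberg). In all, 15 regions (38.5%) had more TH and 11 (28.2%) more YH animals, against 31% and 32.3% of all regions.

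In TL vs. YL, 3 of 19 regions differed by at least 3 animals, against 13.2% of 87609 regions of the series, and over the series 10.7% had more YL and 2.59% more TL animals. The 19 again include regions 10 and 28. The windows of region 28 were selected on this comparison, so the share is not independent of the selection. Region 32 (chr1:96748020-96749513) had a peak in 0 TL and 4 YL animals, with 1 in TH and 1 in YH. Its YL peaks had fold enrichments of 6.25, 5.93, 8.69 and 6.86, the TH peak 10.02 and the YH peak 6.81. This was the largest difference of the locus and reached the smallest p that 4 animals against 4 allow (Fisher's exact test, p = 0.0286, adjusted p = 1). In the whole series 0.785% of the regions with a peak in either group had an unadjusted p under 0.05 in this comparison. Region 11, with 1 TL and 4 YL animals, was the other region with more YL animals. Region 34 (chr1:96757444-96758716) went the other way, with 3 TL animals and 0 in each of the other groups, at fold enrichments of 5.12, 6.21 and 8.38. Both had an unadjusted exact p of 0.143 and an adjusted p of 1. More YL than TL animals were counted in 19 regions (48.7%) and fewer in 12 (30.8%), against 41.1% and 23.8% of all regions.

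Between elevations, the difference was tested within each breed. In Tibetan pigs (TH vs. TL), 1 of 17 regions differed by at least 3 animals, against 7.8% of 80232 regions of the series. It was region 34, with 0 TH and 3 TL animals (Fisher's exact test, p = 0.143, adjusted p = 1). More TH than TL animals were counted in 15 regions (38.5%), and fewer in 15, against 33.8% and 28% of all regions. In Yorkshire pigs (YH vs. YL), 2 of 19 regions differed by at least 3 animals, against 6.72% of 92095 regions. Region 32 had 1 YH and 4 YL animals. Region 16 (chr1:96494919-96495929) had 4 YH and 1 YL animals, with 2 in TH and 3 in TL. Its YH peaks had fold enrichments of 8.55, 8.14, 7.38 and 9.86, and the YL peak, at 8.77, lay among them. Both regions had an exact p of 0.143 and an adjusted p of 1. YL had more animals than YH in 19 regions (48.7%) and fewer in 7 (17.9%), against 35.5% and 23.6% of all regions. Which regions differed by at least 3 animals depended on the length of the lists and on the tags and fold enrichment required of a peak. With lists of equal length, regions 16 and 32 no longer did in any comparison, and region 30 did in YH vs. YL (1 and 4 animals). With at least 20 tags, regions 16, 18 and 32 no longer did. Region 30 then did in TH vs. YH and in YH vs. YL, regions 25 and 36 in TL vs. YL and region 1 in TH vs. TL. With a fold enrichment of at least 8, regions 11, 16, 32 and 34 no longer did. Region 10 then did in TH vs. YH, region 25 in TL vs. YL and in YH vs. YL, and region 30 in YH vs. YL. Region 10 holds the window selected on TH vs. YH, so its difference is not independent of the selection.

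Over all 16 animals, 0 of the 39 regions passed the adjusted test for elevation. For breed, from which regions 10 and 28 were left out, 0 regions of the locus passed. The smallest p that 8 animals against 8 allow is 0.000155. After adjustment over 242875 regions, it can pass only if many regions of the series split 8 against 0. These counts of 0 therefore do not show that the groups are alike. Fisher's exact test of 8 against 8 animals, adjusted by Benjamini-Hochberg, called 0 of 242875 regions in the series, or 0.0% for breed and 0.0% for elevation. An exact test stratified by the other factor also called 0 regions. For breed, 1 region of the locus had an unadjusted p under 0.05 by either test, against 4359 regions (1.79%) of the series by Fisher's exact test. It was region 11, with a peak in 2 Tibetan and 7 Yorkshire pigs (Fisher's exact test, p = 0.0406, adjusted p = 1). With only peaks of a fold enrichment of at least 8, 0 regions did. Tibetan pigs had more animals with a peak in 14 regions (35.9%) and Yorkshire pigs in 18 (46.2%), against 35.5% and 48% of all regions. For elevation, 0 regions of the locus had an unadjusted p under 0.05 by either test, against 1087 (0.448%) in the series. Highland pigs had more animals with a peak in 10 regions (25.6%) and lowland pigs in 21 (53.8%), against 37.5% and 42.6% of all regions. These shares were not tested. The counts of regions in each direction, for breed, for elevation and between 2 groups, include regions 10 and 28. So do the regions set against the series in TH vs. TL and in YH vs. YL. The windows of regions 10 and 28 were selected on reads of TH and YH and of TL and YL. These counts are therefore not independent of the selection. The 2 regions were not tested for breed.

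Fold enrichment was compared where at least 3 peaks of each group lay over 1 base. TH had higher values than the other lists over the whole series, and the values at the locus are given beside that background. In TH vs. YH, the fold enrichments of the groups did not overlap in 1 of 2 regions, against 16.1% of 23950 regions of the series, 15.5% with TH and 0.61% with YH higher. It was region 36 (chr1:96768023-96769199). In TL vs. YL the groups overlapped in each of 4 regions, region 10 among them, while 7.11% of 25118 regions of the series showed no overlap. In TH vs. TL, 2 of 3 regions showed no overlap, against 10.9% of 21485 regions (9.78% with TH higher). They were region 36 and region 10, where 9.22 to 10.83 in TH stood against 5.68 to 8.16 in TL. TH at region 10 is also the group whose reads selected the window, so this difference is not independent of the selection. In YH vs. YL, 2 of 5 regions showed no overlap, against 6.6% of 31977 regions (5.42% with YL higher), namely regions 1 and 25. These comparisons were chosen after seeing the data and no p is given for them, and in a group with 3 peaks the animal without a peak has no value.

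Region 36 was the most widely shared, with a peak in 4 TH, 4 YH, 3 TL and 4 YL animals, 15 of 16. The TH peaks had fold enrichments of 10.68, 10.57, 13.09 and 10.89, with a mean of 11.3 ± 1.2 (SD, n = 4 peaks). The YH peaks had 6.76, 10.09, 9.65 and 9.75, or 9.06 ± 1.55, and each TH peak lay above each of them. The TL peaks, at 8.06, 6.45 and 10.15, also lay below those of TH, and the YL peaks, at 9.79, 10.96, 9.03 and 7.49, overlapped with TH. Among regions of the series with 4 peaks in each of TH and YH, 6.05% showed no overlap, and 7.01% did with 4 TH and 3 TL peaks. In tags the groups were closer, with 22, 23, 29 and 19 in TH against 19, 30, 23 and 26 in YH, which overlapped. The 15 summits of region 36 were spread over 428 bp, from 96768315 to 96768743.

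Region 1 (chr1:96342902-96344525) had a peak in 3 TH, 4 YH, 2 TL and 3 YL animals. The YL peaks had fold enrichments of 12.45, 13.93 and 12.2 and the YH peaks 7.66, 10.16, 9.01 and 12, so the lowest YL peak lay just above the highest YH peak. The TH peaks, at 12.83, 12 and 10.54, overlapped with both, and the TL peaks had 7.88 and 12.12. All 12 summits of this region fell within 93 bp. In region 25 (chr1:96686759-96688739), chosen for this non-overlap after its values were seen, the YL peaks had 10.93, 8.1, 10.46 and 9.9 and the YH peaks 7.48, 7.59 and 6.0. The YL tags in region 25, 23, 45, 51 and 25, overlapped with 42, 40 and 17 in YH.

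Region 30 (chr1:96735180-96736466) was shared by 12 animals and held the highest fold enrichments of the Tibetan groups at the locus, 15.04 in TH and 15.41 in TL. A peak was present in 3 TH, 2 YH, 3 TL and 4 YL animals. The TH peaks had fold enrichments of 9.83, 14.36 and 15.04 and the TL peaks 13.4, 15.41 and 12.85, which overlapped. The YH peaks had 6.2 and 9.75, and the YL peaks 9.65, 9.17, 8.74 and 14.9. The YH peaks both lay below each Tibetan peak, with 2 YH peaks to compare, while the YL peaks ranged from below to within the Tibetan values.

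Region 23 (chr1:96658850-96659923) held the highest fold enrichments of the Yorkshire groups, 15 in YH and 16.69 in YL, the latter being the maximum of the locus. A peak was present in 1 TH, 3 YH, 2 TL and 4 YL animals. The other YH peaks had fold enrichments of 7.71 and 8.96 and the other YL peaks 7.74, 11.86 and 11.01, so that YH and YL overlapped over nearly their whole range. The TL peaks, at 11.28 and 11.14, and the TH peak, at 8.72, lay within that range. These peaks were small in tags, between 13 and 24.

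**Figure D4:**
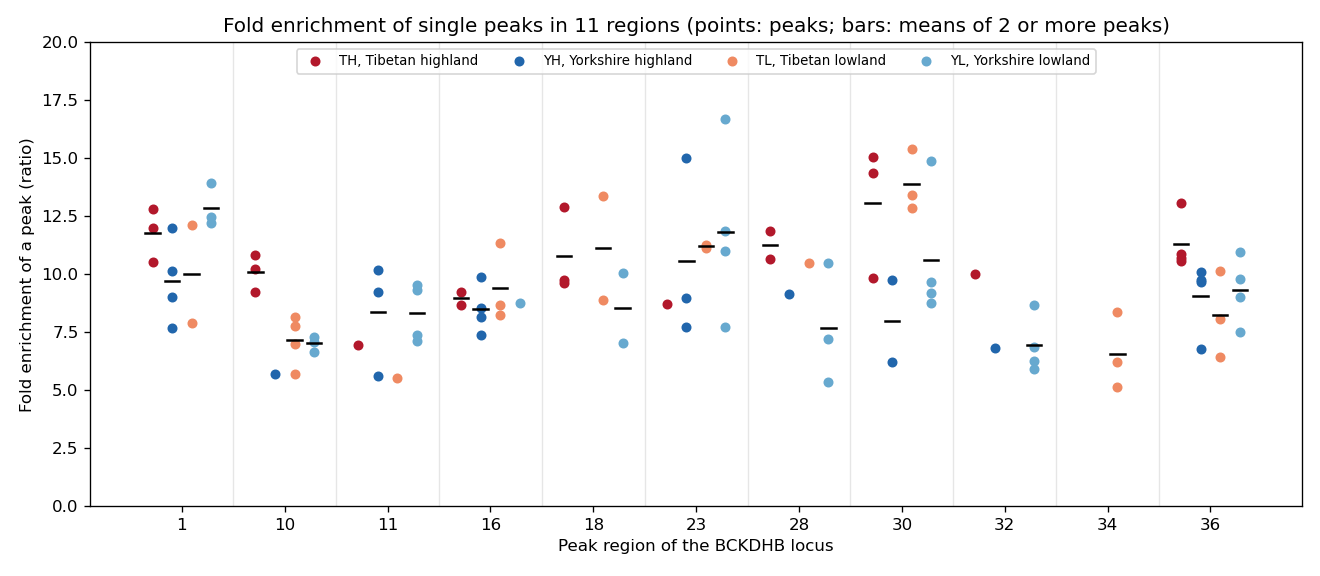
The fold enrichment of single peaks (y axis, a ratio over the background) is plotted for the 11 regions described in full (x axis) and coloured by group, with a black bar at the mean where a group has 2 or more peaks. TH peaks lie above the TL peaks in regions 10 and 36 without overlap, and the maximum of the locus, 16.69, is a YL peak of region 23.

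The other 28 regions held 111 peaks, 27 from TH, 24 from YH, 28 from TL and 32 from YL. Each had a peak in 1 to 11 animals, with a median of 2, and their fold enrichments ran from 4.2 to 13.64. Among the 10 regions with peaks of a single group, region 34 included, 5 belonged to TL, 3 to TH and 2 to YL, and 0 to YH. The split of such regions by group over the series was not determined, so these counts describe the locus only. The TL regions held 9 peaks with fold enrichments of 4.94 to 11.14 and the TH regions 5 peaks with 7.91 to 11.15, so their ranges overlapped. The 2 YL peaks had fold enrichments of 5.9 and 7.5.

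Summits of different animals within a region lie close in part because its peaks were joined by overlap. No value for the series was determined, so the distances are a description. Among 34 regions with at least 2 peaks, the distance between the lowest and the highest summit had a median of 143.5 bp, and it was at most 100 bp in 14 regions. It exceeded 500 bp in 5 regions, region 28 with 1007 bp among them. In region 18 the 7 summits fell within 68 bp, and in region 23 the 10 summits fell within 106 bp. In region 10 the range was 451 bp.

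Other genes of branched-chain amino acid breakdown were looked up in the part of the authors' list of DMRs that was used here. The list of genes, with the transaminases BCAT1 and BCAT2, the partner subunits BCKDHA, DBT and DLD, the kinase BCKDK and the phosphatase PPM1K among them, held 29 genes beside BCKDHB. That part is incomplete, so how many of these genes have a window was not determined. In it, a window was annotated to PCCB, which encodes the beta subunit of propionyl-CoA carboxylase, an enzyme further down the breakdown of isoleucine and valine. The window, chr13:84614501-84615000, lay in an intron and came from TH vs. YH. It was overlapped by 1 YH peak with 31 tags and a fold enrichment of 5.49 and by 0 peaks of TH, TL and YL. Within 2000 bp of it, 1 TH, 3 YH, 2 TL and 3 YL animals had a peak. This window was chosen by the reads of TH and YH, and no test was made.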

How the data were processed

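MeDIP-seq libraries of heart DNA from 16 pigs were analysed from the deposited peak lists, 1 per group. Per the study's methods, reads were cleaned with FASTX and aligned with Bowtie to the pig genome build Sscrofa10.2, and MACS was the peak caller. Whether animals were called separately is not given in the sources used here. Tags are counts of reads per peak, deposited without normalization. Fold enrichment, as deposited, is the ratio over background that the authors obtained from MACS. For 100907 TH peaks, the end was read from the field that joins start and end. Tags, which depend on depth, served to describe peaks and as a filter.

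Peaks of the 4 lists sharing at least 1 bp were joined into regions, and the largest number of a group's peaks over a base was taken as its animals with a peak (0 to 4). Regions were compared with two-sided Fisher's exact tests, adjusted by Benjamini-Hochberg. Tests of 8 against 8 animals were adjusted over all regions of the series, with a threshold of 0.05. Tests between 2 groups were adjusted over the regions of the series with a peak in either group. Between 2 groups, regions were counted by a difference of at least 3 of 4 animals. A permutation test of fold enrichment between 8 and 8 animals was intended, but 0 regions of the locus had all 16 animals over 1 base (4307 in the series). Ranges of fold enrichment were compared in its place, which was chosen after seeing the data. Described in full were regions with a DMR window, with at least 12 animals, with a difference of at least 3 animals or with the highest fold enrichment of a list, 11 in all. The locus, these rules and the gene list were chosen with earlier results of these data known. Positions of the windows and the primer sequences came from the study's supplementary files, of which the list of windows was held in part. The RefSeq table (Sscrofa11.1) was used for gene names and neighbours only. All 29 symbols of the gene list were found in it. No genome sequence or annotation of Sscrofa10.2 was used. Alternatives were stricter peaks, equal lists, joining within 500 bp and other counts. Scripts ran under Python 3.11.15 with SciPy 1.17.1, pandas 2.3.3 and NumPy 2.4.6, and figures were drawn with Matplotlib 3.10.9.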

Additional observations from a re-analysis of the deposited data

Results flagged for a closer look

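In the regions described in full, 10 groups had 4 peaks, and their tags and fold enrichments gave 20 sets of 4 values. By Dixon's criterion, a value stood apart from the other 3 in 5 of these sets. For normally distributed values, chance alone gives about 1 in 20. That rate need not hold here, because tags are whole numbers with ties and some regions were chosen by their values. The count of 5 therefore does not show an excess over chance. Tags and fold enrichment of the same peaks are not independent. In region 10, a TL peak had 41 tags against 21, 24 and 21 in the others. In region 30, a YL peak had a fold enrichment of 14.9 against 9.65, 9.17 and 8.74. In region 36, a TH peak had a fold enrichment of 13.09, above 10.57 to 10.89 in the others, and a YH peak had 6.76, below 9.65 to 10.09. In the same region, a YL peak had 22 tags where the other 3 had 28 each.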

How the results depend on the processing

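The density of the locus changed its order against chromosomes 1 to 18 and X with only peaks of at least 20 tags. The ratio of the densities then went from 1.032 to 0.829 in TH, from 1.167 to 0.886 in TL and from 1.117 to 0.992 in YL. Against chromosome 1 the ratio stayed above 1 in each group, between 1.097 and 1.326. The tags or fold enrichment required of a peak moved most values. With only peaks of at least 20 tags, the locus had 24 regions, 0 of them with at least 12 animals. Regions differing by at least 3 animals then numbered 2 in TH vs. TL and 1 in YH vs. YL, regions without overlap in fold enrichment 1 in TH vs. TL and 0 in YH vs. YL, and 1 TH animal had a peak at the window at 96711001. In TH vs. YH, region 30 (3 and 0 animals) then replaced region 18. With only peaks of a fold enrichment of at least 8, 1 region had at least 12 animals, and 2 regions differed by at least 3 animals in TH vs. YH, 1 in TL vs. YL and 0 in TH vs. TL. Those in TH vs. YH were regions 10 and 18. Region 10 holds the window at 96439001, selected on TH vs. YH, so its counts are not independent of the selection. At the window at 96439001, 0 YH, 1 TL and 0 YL animals were then counted beside 3 of TH, so that TH passed from fewer animals than TL to more, and 1 YL animal at each of the windows at 96710001 and 96711001. With lists of equal length, 1 region had at least 12 animals, and in YH vs. YL 1 region differed by at least 3 animals and 1 showed no overlap in fold enrichment. With tags in place of fold enrichment, the regions without overlap were 0 in TH vs. YH, 1 in TL vs. YL, 0 in TH vs. TL and 0 in YH vs. YL. With at least 250 bp of overlap, the window at 96710001 had 0 TH, 0 TL and 2 YL animals. The difference of region 32 between TL and YL, -4 animals, was -2 with at least 20 tags and with equal lists and -1 with a fold enrichment of at least 8. Between YH and YL it was -3, and -2, -2 and -1 under the same settings. Region 18 (TH minus YH) went from 3 to 1 animals with at least 20 tags. Region 16 (YH minus YL) went from 3 to 1 with at least 20 tags and to 2 with equal lists or a fold enrichment of at least 8. With that fold enrichment, region 34 (TL minus YL) went from 3 to 1 and region 11 (TL minus YL) from -3 to -2. In all, 86 values for the locus as a whole or its windows stayed within 1.5 times the reported value (counts at the windows were the same), 26 did not and 3 changed their order, and of the values of single regions 13 fell under a difference of 3 animals and 22 did not. The alternatives on fold enrichment ranges and tags were chosen after seeing the data. With a fold enrichment of at least 8, region 11 lost its unadjusted p under 0.05 for breed, leaving 0 regions. Region 25 gained one for elevation, with 0 highland and 5 lowland animals (Fisher's exact test, p = 0.0256). It had 5 and 6 without this cut. After adjustment 0 regions of the series passed.

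No paired analysis was possible because the lists carry no animal names, and for the same reason no animal was left out in turn. The intended test of fold enrichment over 16 animals and its alternatives gave no value. With 4 animals a group the smallest exact p is 0.0286, and with 8 against 8 it is 0.000155. After adjustment over so many regions, neither can pass in a few regions only. None of the adjusted values passed, which does not show that the groups are alike. The lists hold peaks above the authors' threshold, so weaker enrichment in an animal is not counted.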
